A study of Mus musculus with 12 samples.

Results

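The aryl hydrocarbon receptor (AhR) pathway was measured here in mouse liver through 7 genes: the receptor Ahr, its partner Arnt, the feedback genes Ahrr and Tiparp, and the cytochrome P450 genes Cyp1a1, Cyp1a2 and Cyp1b1. A probe was taken as a member when the accession printed for it on the array belongs to one of these genes. That gave 11 of the 39429 probes, and 7 of the 20886 genes that could be named. Ahr, Arnt, Ahrr and Tiparp had 2 probes each, and the Cyp1 genes had 1 each. A gene with several probes is read first by its brightest one.

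The livers came from 12 female C57BL/6N mice, bought at 6 weeks of age and fed for 6 months on one of 4 diets, with 3 mice per diet. The control mice (Ctrl) ate a normal purified diet whose carbohydrates were corn starch and sucrose, and the resveratrol mice (RS) ate that diet with resveratrol added. In the other diets, rice took the place of starch and sucrose. The DJ mice ate the rice variety Dongjin, and the DJ526 mice ate DJ526, a Dongjin rice carrying a peanut stilbene synthase gene and therefore making resveratrol in its grain. The resveratrol doses of the RS and DJ526 diets are not given in the labels, so these diets are set side by side and not as matched doses. Mice were caged in groups and the cages were assigned to the diets, so cage and diet cannot be told apart. The p-values below measure the spread between mice that may have shared a cage.

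Total liver RNA was hybridised to 1-colour arrays, each with 4 mice to a slide. Slide 1 held the 3 Ctrl mice and DJ mouse 1, slide 2 held DJ mice 2 and 3 and RS mice 1 and 2, and slide 3 held RS mouse 3 and the 3 DJ526 mice. Diet and slide are thus partly bound together, and for the 7 genes the differences from Ctrl are also given with slide as a block. Slide 1 links Ctrl to the other diets only through DJ mouse 1. Every blocked difference from Ctrl therefore runs through that mouse, and blocked DJ minus Ctrl is that mouse minus the Ctrl mean. On each array 73.0% to 80.8% of the spots were well above background and none was saturated. All 8 hepatocyte marker genes, among them Alb, Ttr and Hnf4a, were well above background on all 12 arrays. A supplementary sample list names the RS and DJ arrays the other way round from the labels, and the labels are followed here.

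AhR is a ligand-activated transcription factor that waits in the cytosol in a complex with the chaperone Hsp90 and its co-chaperone p23. Dioxin-like compounds, tryptophan metabolites and many plant compounds bind it. The loaded receptor moves to the nucleus, pairs with Arnt and binds DNA with the core letters GCGTG near genes such as Cyp1a1, Cyp1a2, Cyp1b1, Ahrr and Tiparp. Ahrr and Tiparp then act back on the receptor as brakes. In liver, Cyp1a2 is a standing hepatocyte enzyme that metabolises caffeine and arylamines, whereas Cyp1a1 is low until an activator arrives. Resveratrol is known as an antagonist of this receptor.

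The promoters of Cyp1a1 and Cyp1a2 are shown because these genes had the largest differences from Ctrl whose mice did not overlap, and those of Cyp1b1 and Ahrr for contrast. Each runs from 250 bases before to 50 bases after the gene's start on its own strand. The sequences are from RefSeq, build GRCm38.p6. Capitals mark GCGTG, or CACGC where the letters lie on the opposite strand. The windows are chr9:57697363-57697662 on the plus strand for Cyp1a1, chr9:57683606-57683905 on the minus strand for Cyp1a2, chr17:79715012-79715311 on the minus strand for Cyp1b1 and chr13:74292282-74292581 on the minus strand for Ahrr.
Cyp1a1: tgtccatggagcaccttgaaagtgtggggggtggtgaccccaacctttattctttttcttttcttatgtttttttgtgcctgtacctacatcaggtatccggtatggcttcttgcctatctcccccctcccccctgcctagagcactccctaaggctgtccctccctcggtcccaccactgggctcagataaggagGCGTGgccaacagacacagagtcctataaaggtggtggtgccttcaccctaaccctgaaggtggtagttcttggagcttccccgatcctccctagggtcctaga
Cyp1a2: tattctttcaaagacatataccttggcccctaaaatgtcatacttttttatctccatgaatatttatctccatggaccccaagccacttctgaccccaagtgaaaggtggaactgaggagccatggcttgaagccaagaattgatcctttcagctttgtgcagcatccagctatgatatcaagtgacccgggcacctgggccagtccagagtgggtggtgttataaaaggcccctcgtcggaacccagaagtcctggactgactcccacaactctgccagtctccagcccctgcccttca
Cyp1b1: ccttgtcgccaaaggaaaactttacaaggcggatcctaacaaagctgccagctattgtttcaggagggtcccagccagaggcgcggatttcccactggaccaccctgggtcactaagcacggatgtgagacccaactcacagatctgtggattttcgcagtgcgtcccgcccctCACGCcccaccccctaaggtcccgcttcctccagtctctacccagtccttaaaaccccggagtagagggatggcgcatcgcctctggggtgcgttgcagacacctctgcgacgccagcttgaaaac
Ahrr: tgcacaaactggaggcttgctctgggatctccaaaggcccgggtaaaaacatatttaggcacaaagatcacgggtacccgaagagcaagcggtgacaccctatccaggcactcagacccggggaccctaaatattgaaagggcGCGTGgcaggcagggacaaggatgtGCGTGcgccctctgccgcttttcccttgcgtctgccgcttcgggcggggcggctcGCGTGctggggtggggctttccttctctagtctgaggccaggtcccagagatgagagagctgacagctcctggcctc
Cyp1a1 and Cyp1a2 are neighbours on chromosome 9 and are read away from each other. GCGTG occurred 1 time in the Cyp1a1 window, at -54 from the start, and 1 time in the Cyp1b1 window. It occurred 0 times in the Cyp1a2 window and 3 times in the Ahrr window. The windows of Arnt and Tiparp, which are not shown, held 1 each, and that of Ahr was not analysed here. On either strand, GCGTG was present in 32.4% of the 32851 mouse promoter windows of this length. The longer TNGCGTG, which contains GCGTG, was found in 5.07% of all windows and, among these genes, only in that of Ahrr. The letters TATAAA lay at -30 from the start of Cyp1a1 and at -29 from that of Cyp1a2, and 13.6% of all windows held them on either strand. These letter matches describe the windows and were not tested as binding sites.

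All signals below are log2 values of the background-subtracted spot signal relative to the 75th percentile of the same array, so 0 is the brightness of the array's upper quartile. Differences and their standard errors (SE) come from one limma fit over all probes and all 12 mice. Adjusted p-values are Benjamini-Hochberg values over the 39429 probes. No member probe was called at an adjusted p of 0.05 in any of the 9 comparisons. The lowest adjusted p of a member was 0.266, for Cyp1a2 in DJ526 against Ctrl. Over all probes this threshold was passed by 0.00507% in DJ526 against Ctrl, 0.0101% in DJ526 against DJ, 0.00761% in DJ526 against RS and 0% in each of the other 6 comparisons. The values and directions below are therefore described with the unadjusted limma p and with whether the mice overlap. With 3 mice against 3, an exact permutation test over the mice cannot give a two-sided p below 0.1. RS, DJ and DJ526 were all set against the same 3 Ctrl mice, so a Ctrl mean that lies low or high by chance moves all these comparisons together.

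**Figure D1:**
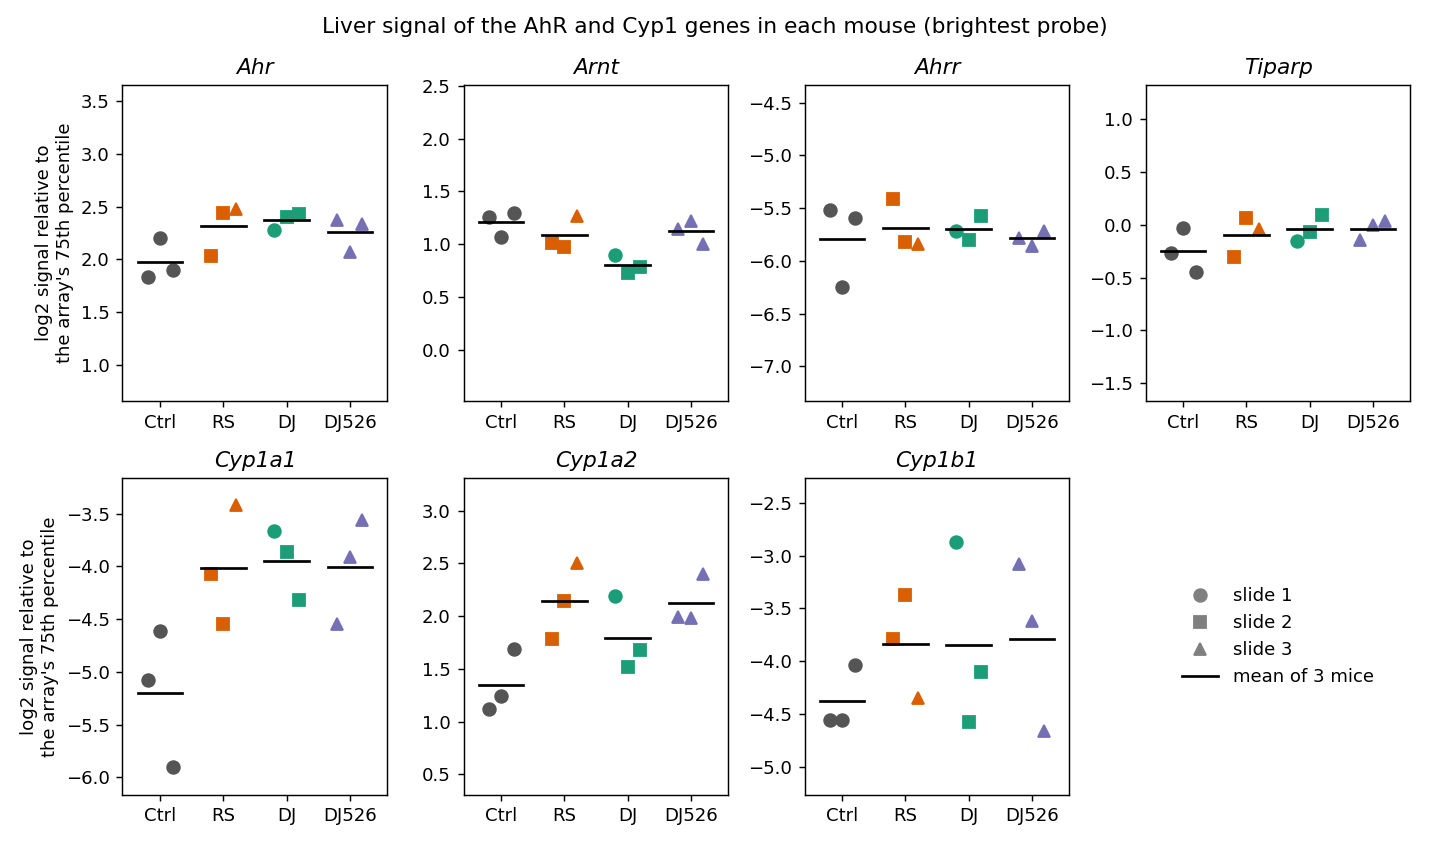
Log2 signal relative to the array's 75th percentile (vertical axis, spanning the same number of log2 units in each panel) of the brightest probe of each gene, by diet. Each point is 1 mouse, its shape gives the slide, and the line is the mean of the 3 mice. Cyp1a1 lay above all 3 Ctrl mice in all 9 other mice, and Arnt was lowest in the DJ mice.

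Cyp1a1, the oxidising enzyme most used as a readout of AhR activity, had the highest mean difference from Ctrl among these genes. The Ctrl mice measured -5.08, -4.62 and -5.91, which is 2.96%, 4.08% and 1.67% of the upper quartile of their arrays. The RS mice measured -4.07, -4.54 and -3.42. The DJ mice measured -3.66, -3.87 and -4.32, and the DJ526 mice -4.54, -3.92 and -3.56. Every mouse of the other 3 diets lay above every Ctrl mouse, although the gap between the highest Ctrl mouse and the lowest RS or DJ526 mouse was narrow. Of all probes, 1.35% lay above all Ctrl mice in this way in all 9 other mice. No other member probe did so. On the log2 scale, RS, DJ and DJ526 exceeded Ctrl in Cyp1a1 by 1.19 ± 0.39, 1.25 ± 0.39 and 1.19 ± 0.39 (SE, n = 3 per group). These are folds of 2.28, 2.38 and 2.29. In the limma fit the unadjusted p was 0.0105, 0.00784 and 0.0102, and the adjusted p was 0.671, 0.816 and 0.306.

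Cyp1a1 did not separate the RS, DJ and DJ526 mice. DJ had the highest mean, -3.95, followed by DJ526 at -4.01 and RS also at -4.01. DJ526 minus DJ was -0.06, with a 95% interval from -0.91 to 0.79. DJ526 minus RS was 0.01, with an interval from -0.84 to 0.86. These intervals are wide and leave room for sizeable differences either way. With slide as a block the Cyp1a1 values were -0.80 for DJ526 minus DJ and -0.58 for DJ526 minus RS. The blocked DJ526 minus RS comes from slide 3 alone, where all 3 DJ526 mice lay below the single RS mouse, at a mean of -4.01 against -3.42.

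Cyp1a1 is a dim probe, so its difference depends on how background is removed. Without background subtraction the Cyp1a1 differences from Ctrl in RS, DJ and DJ526 were 0.81, 0.80 and 0.76. With the normexp background correction, run with an offset of 50 added to each signal, they were 0.56, 0.59 and 0.51. With slide as a block they were 1.32, 1.54 and 0.74. The blocked values rest on few mice, because slide 1 holds a single mouse, DJ mouse 1, that was not fed the control diet. The blocked DJ value is that mouse, at -3.66, minus the Ctrl mean of -5.20 on the same slide.

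Cyp1a2, which sits beside Cyp1a1 and is the Cyp1 enzyme of the unstimulated liver, was highest in both resveratrol diets. Its level was 1.12, 1.24 and 1.69 in the Ctrl mice and 1.78, 2.14 and 2.50 in the RS mice. The DJ mice measured 2.19, 1.51 and 1.67, and the DJ526 mice 1.99, 1.99 and 2.40. RS and DJ526 each lay clear of Ctrl, while DJ mice 2 and 3 fell within the Ctrl range. The mean rank ran from RS at 2.14 and DJ526 at 2.12 through DJ at 1.79 to Ctrl at 1.35.

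The Cyp1a2 difference from Ctrl was 0.79 ± 0.23 in RS, a fold of 1.73, with an unadjusted limma p of 0.00501 and an adjusted p of 0.583. It was 0.77 ± 0.23 in DJ526, a fold of 1.71, with an unadjusted p of 0.00571. In DJ it was 0.44 ± 0.23, with an unadjusted p of 0.0757 and an adjusted p of 0.970, and it was 0.24 without DJ mouse 1. DJ526 minus DJ was 0.33, with a 95% interval from -0.17 to 0.83, so the rice diets with and without resveratrol were not separated for Cyp1a2. DJ526 minus RS was -0.02, with an interval from -0.52 to 0.48. Taking the resveratrol diets together against the diets without, Cyp1a2 differed by 0.56 ± 0.16, with an unadjusted p of 0.00493 and an adjusted p of 0.324. Slide as a block raised the Cyp1a2 difference from Ctrl to 1.21 in RS and 0.84 in DJ, and brought it to 0.84 in DJ526, while DJ526 minus RS went to -0.38. The blocked DJ value is DJ mouse 1, at 2.19, minus the Ctrl mean of 1.35 on slide 1. On slide 2 the DJ mean was 1.59 beside 1.96 in RS. The blocked DJ526 minus RS comes from slide 3 alone, where all 3 DJ526 mice lay below the RS mouse, at a mean of 2.12 beside 2.50. With the RS and DJ arrays exchanged, Cyp1a2 would differ from Ctrl by 0.44 in RS and 0.79 in DJ, and the resveratrol diets from the diets without by 0.21.

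Cyp1b1, the Cyp1 enzyme found mainly outside hepatocytes, scattered widely. Its level was -4.56, -4.55 and -4.04 in Ctrl and -3.79, -3.38 and -4.35 in RS. In DJ it was -2.87, -4.58 and -4.10, and in DJ526 -3.08, -3.62 and -4.66. A single DJ mouse and a single DJ526 mouse lay at or above -3.08, while another mouse of each of these diets lay below all Ctrl mice. The differences from Ctrl were 0.54 ± 0.47, 0.53 ± 0.47 and 0.60 ± 0.47 in RS, DJ and DJ526, with unadjusted limma p of 0.276, 0.287 and 0.235. Cyp1b1 thus differed from Ctrl by about as much as its error in each diet. Leaving out DJ mouse 1 took the DJ difference to 0.04, and slide as a block took the 3 differences to 2.27, 1.51 and 2.83.

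**Figure D2:**
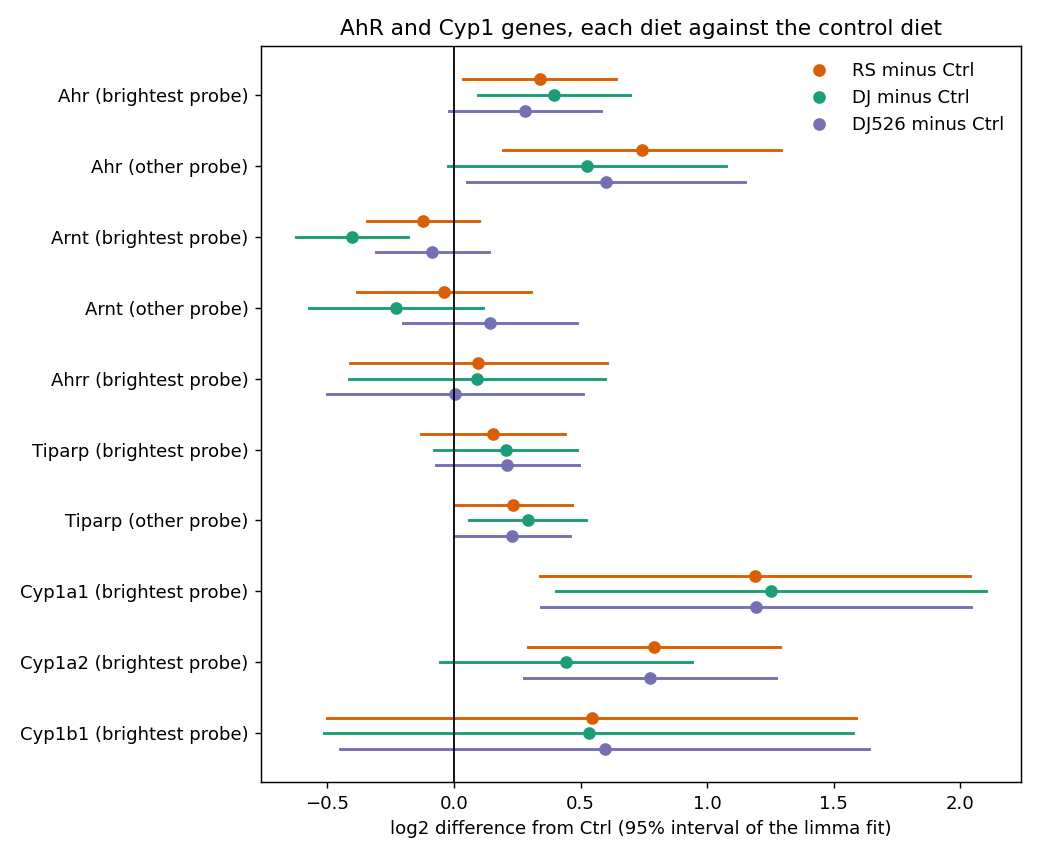
Log2 difference from Ctrl (horizontal axis) for the 10 member probes well above background, as the limma estimate (point) and its 95% interval (line) for RS, DJ and DJ526, each with 3 mice against the same 3 Ctrl mice. Cyp1a1 and Cyp1a2 lie farthest to the right with intervals clear of 0 in RS and DJ526, Arnt lies to the left in DJ, and no interval here is corrected for the number of probes.

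Ahr, the receptor itself, had a mean above that of Ctrl in each of the other diets by both of its probes. Its brightest probe, A_55_P2109613, measured 1.83, 2.20 and 1.90 in Ctrl and 2.03, 2.44 and 2.48 in RS. It measured 2.28, 2.40 and 2.43 in DJ and 2.37, 2.07 and 2.34 in DJ526. The DJ mice lay above all Ctrl mice, as for 4.48% of all probes. RS mouse 1 and DJ526 mouse 2 did not, so 7 of the 9 mice lay above the Ctrl range. No share over all probes was computed for such counts of 7 of 9, here or below. RS, DJ and DJ526 differed from Ctrl by 0.34 ± 0.14, 0.40 ± 0.14 and 0.28 ± 0.14. Their unadjusted limma p was 0.0313, 0.0148 and 0.0648.

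The dimmer Ahr probe, A_65_P06603, also lay above the Ctrl range in 7 of 9 mice. It measured -5.34, -4.94 and -5.39 in Ctrl, -5.00, -4.30 and -4.14 in RS, -4.50, -4.60 and -4.99 in DJ and -4.64, -4.80 and -4.44 in DJ526. Its differences from Ctrl were 0.74 ± 0.25, 0.53 ± 0.25 and 0.60 ± 0.25. Slide as a block reduced the difference of the brightest Ahr probe to 0.12 in RS and 0.30 in DJ, and turned it to -0.10 in DJ526. The dimmer probe stayed above 0 in that setting, at 0.87, 0.72 and 0.39. In DJ526 the Ahr probes thus had opposite signs with the block, while both lay above Ctrl on average without it. The median of all probes in DJ526 against Ctrl was itself -0.12 with the block, near the value of the brightest Ahr probe.

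Arnt, the partner that AhR shares with the hypoxia factors, was the gene whose brightest probe lay below Ctrl on average in each of the other diets. The brightest probe, A_55_P2100895, measured 1.26, 1.07 and 1.30 in Ctrl and 1.02, 0.98 and 1.27 in RS. In DJ it measured 0.90, 0.72 and 0.79, and in DJ526 1.14, 1.22 and 1.00. All 3 DJ mice lay below every mouse of the other diets. Of all probes, 0.452% did so, and 4.86% lay clear below Ctrl in DJ. DJ minus Ctrl was -0.40 ± 0.10, a fold of 0.76, with an unadjusted limma p of 0.00208 and an adjusted p of 0.693. DJ526 minus DJ was 0.32 ± 0.10, with an unadjusted p of 0.00914 and an adjusted p of 0.378. RS and DJ526 differed from Ctrl by -0.12 and -0.09. With slide as a block RS, DJ and DJ526 minus Ctrl were -0.07, -0.31 and -0.21.

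The other Arnt probe, A_55_P2100899, also had its lowest mean in DJ, while its DJ526 mean lay above that of Ctrl by 0.14 ± 0.16. DJ minus Ctrl was -0.23 ± 0.16 and DJ526 minus DJ was 0.37 ± 0.16, with unadjusted limma p of 0.17 and 0.0367. Its 3 DJ mice measured -2.03, -2.52 and -2.62 beside -2.15, -2.14 and -2.20 in Ctrl, so DJ mouse 1 lay above the Ctrl range and the other two below it. For the brightest Arnt probe the DJ mouse lay below the 3 Ctrl mice on slide 1, at 0.90 against a mean of 1.21, and both DJ mice below both RS mice on slide 2, at 0.76 against 1.00. Slide as a block took its DJ526 minus DJ difference from 0.32 to 0.09, and turned DJ minus Ctrl of the other probe to 0.13, with RS and DJ526 minus Ctrl at 0.44 and 0.49. If the RS and DJ arrays were exchanged, as the supplementary list has them, the brightest Arnt probe would be low in RS, at -0.40 against Ctrl, and not in DJ, at -0.12.

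Tiparp, an ADP-ribosyltransferase that AhR induces and that limits the receptor, differed from Ctrl by at most 0.29 on the log2 scale. The probe A_51_P514961 ranged from -0.44 to -0.03 in Ctrl and from -0.31 to 0.06 in RS. With rice it ranged from -0.16 to 0.10 in DJ and from -0.15 to 0.04 in DJ526. Its differences from Ctrl were 0.15, 0.20 and 0.21, each with an SE of 0.13. The probe A_55_P1985890 lay at -0.77, -0.46 and -0.72 in Ctrl and above all of these in 7 of the 9 other mice. For Tiparp by this probe, RS, DJ and DJ526 minus Ctrl came to 0.24 ± 0.10, 0.29 ± 0.10 and 0.23 ± 0.10, with unadjusted limma p of 0.0454, 0.0176 and 0.0491. In the fit with slide as a block this Tiparp probe gave 0.20, 0.27 and 0.20, while A_51_P514961 gave -0.046, 0.09 and -0.047.

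Ahrr, the repressor that competes with AhR for Arnt, had means within 0.10 of Ctrl in each of the other diets. The probe A_51_P254425 ranged from -6.25 to -5.52 in Ctrl and from -5.84 to -5.41 in RS. With rice it ranged from -5.80 to -5.57 in DJ and from -5.86 to -5.72 in DJ526. Its differences from Ctrl were 0.10, 0.09 and 0.00, each with an SE of 0.23. In DJ526 the 95% interval ran from -0.50 to 0.51. Blocked by slide, the Ahrr values were 0.14, 0.07 and 0.20. The other Ahrr probe, A_55_P2128388, stayed at background on all 12 arrays, so no difference is given for it.

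Counted over the 11 member probes, 5 had an unadjusted limma p under 0.05 in RS against Ctrl, all of them higher: both Ahr probes, Cyp1a1, Cyp1a2 and Tiparp A_55_P1985890. Of all probes, 6% passed in either direction and 4.05% were higher. In DJ against Ctrl 4 passed, with Ahr, Cyp1a1 and Tiparp higher and Arnt lower, beside 5.22% of all probes. In DJ526 against Ctrl 4 passed, all higher, beside 10.8% of all probes in either direction and 6.49% higher. These were Ahr A_65_P06603, Cyp1a1, Cyp1a2 and Tiparp A_55_P1985890. Since these probes come from 5 genes in all and share the Ctrl mice, the counts are not independent of each other.

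By the rule that groups do not overlap, RS lay clear above Ctrl for Cyp1a1 and Cyp1a2, 2 of 11 probes, where 6.24% of all probes did so. DJ lay clear of Ctrl for 4 of 11, with Ahr, Cyp1a1 and Tiparp above and Arnt below, beside 9.34% of all probes in either direction. DJ526 lay clear above Ctrl for Ahr A_65_P06603, Cyp1a1 and Cyp1a2, 3 of 11, beside 12.5% of all probes.

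Between the other diets the member genes differed in fewer places. DJ526 against DJ gave an unadjusted limma p under 0.05 for the 2 Arnt probes, both higher in DJ526, where 9.81% of all probes passed in either direction. DJ526 against RS gave 0 of 11 beside 5.5%. DJ against RS gave 1 of 11, Arnt A_55_P2100895 at -0.28 ± 0.10, beside 3.52%. Resveratrol diets against diets without gave 2 of 11, Cyp1a2 at 0.56 and Ahr A_65_P06603 at 0.41, beside 10.1%. That Ahr probe had a Ctrl mean of -5.22, beside -4.48 in RS, -4.70 in DJ and -4.63 in DJ526. Its DJ526 minus DJ difference was 0.07 ± 0.25, and the brightest Ahr probe gave 0.11 ± 0.10 for the resveratrol diets. Rice diets against starch and sucrose diets gave 2 of 11, Cyp1a1 at 0.63 ± 0.27 and Arnt A_55_P2100895 at -0.18 ± 0.07, beside 4.57%. Each value of this rice comparison rested on a single diet. For Cyp1a1 that diet was Ctrl, with a mean of -5.20. RS, also fed starch and sucrose, had a Cyp1a1 mean of -4.01, close to DJ at -3.95 and DJ526 at -4.01. For Arnt it was DJ, with a mean of 0.80, while DJ526 at 1.12 lay near RS at 1.09 and Ctrl at 1.21.

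Whether resveratrol had a different effect on rice than on starch was tested as DJ526 minus DJ, less RS minus Ctrl. For Cyp1a1 this difference was -1.25 ± 0.55, with an unadjusted limma p of 0.0434 and an adjusted p of 0.804. It was -0.45 ± 0.19 for Ahr and 0.44 ± 0.14 for Arnt by their brightest probes, with adjusted p of 0.8 and 0.675. These 3 of 11 probes had an unadjusted p under 0.05, beside 6.09% of all probes, and none was called. For Cyp1a2 the value was -0.46 ± 0.32. The Cyp1a1 value is made of -0.06 for DJ526 minus DJ and 1.19 for RS minus Ctrl. With slide as a block, Cyp1a1, Cyp1a2 and the brightest probes of Ahr and Arnt gave -2.12, -1.22, -0.52 and 0.16.

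**Figure D3:**
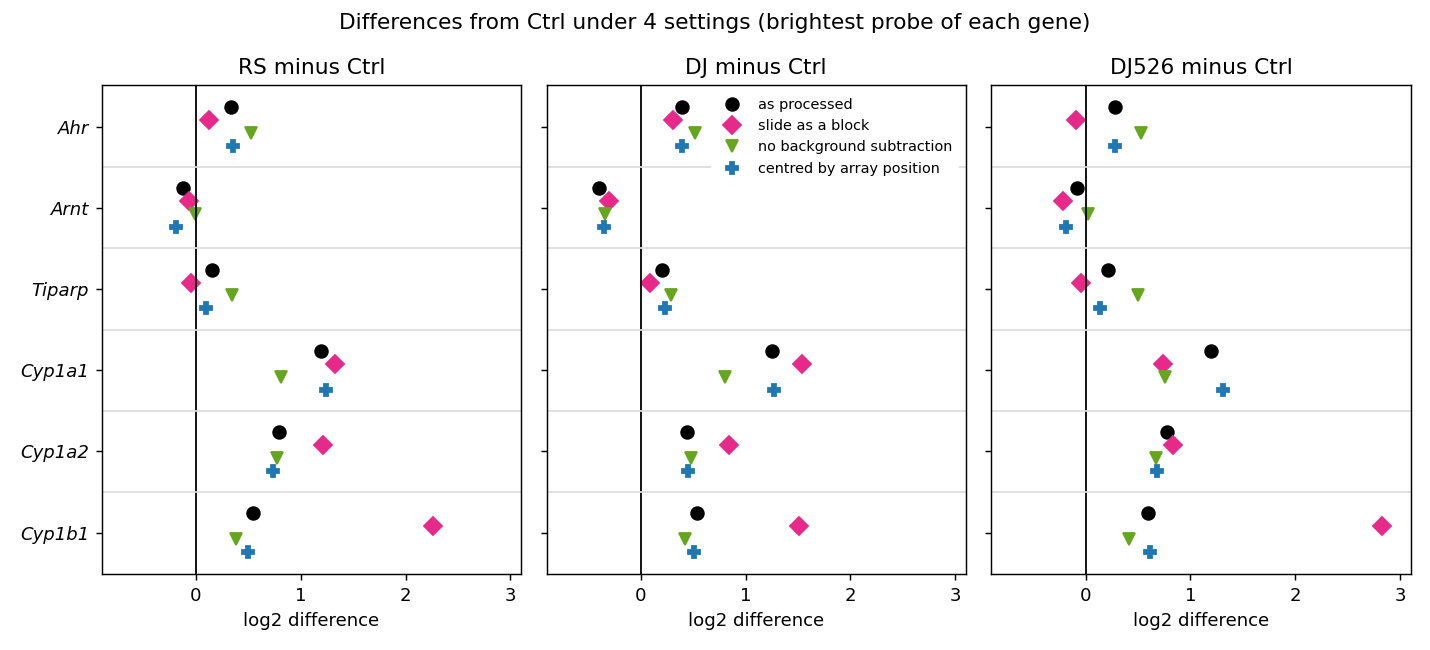
Log2 difference from Ctrl (horizontal axis) of the brightest probe of 6 member genes in RS, DJ and DJ526, as processed and under 3 other settings: slide as a block, no background subtraction, and centring by array position. Cyp1a1 and Cyp1a2 lie to the right of 0 in all 4 settings, with slide as a block Ahr crosses 0 in DJ526 and Tiparp in RS and DJ526, and Cyp1b1 spreads most.

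Other genes known to be AhR targets lay on both sides of Ctrl. Of a list of 20 such genes 16 were measured, all well above background, and none was called in any comparison. In RS, DJ and DJ526 their median difference from Ctrl came to 0.09, -0.08 and 0.01, beside medians over all probes of 0.03, -0.02 and 0.02. The genes with a mean above that of the control mice numbered 12, 5 and 8.

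Gsta2, a glutathione transferase, differed from Ctrl by 0.80 ± 0.61 in RS and 0.86 ± 0.61 in DJ526, and by -0.01 in DJ. Cyp2s1, a minor P450, differed by -0.69 ± 0.54, -0.88 ± 0.54 and -1.09 ± 0.54 in RS, DJ and DJ526, where Ctrl mouse 2 alone lay at -0.05 and the other Ctrl mice at -2.72 and -2.16. The growth hormone feedback gene Socs2 differed by -0.57 ± 0.44 in RS. Cd36, a fatty acid receptor, was 0.76 ± 0.43 in DJ and -0.39 ± 0.43 in DJ526, and DJ526 minus DJ was -1.16 ± 0.43 with an unadjusted limma p of 0.0197. None of these values passed the adjusted test. The slide block gave other sizes: Gsta2 differed by 2.38, 1.03 and 2.50, Cyp2s1 by -0.86, -0.96 and -1.37, Socs2 by -0.25 in RS, and Cd36 by 0.33 in DJ and -0.64 in DJ526 minus DJ.

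Smaller but tighter differences were seen in 3 targets, named after their values were seen because their unadjusted limma p was under 0.05 in some comparison with Ctrl. Xdh, the xanthine dehydrogenase of purine breakdown, was higher than Ctrl by 0.17 ± 0.07 in RS and 0.27 ± 0.07 in DJ526 and by 0.03 in DJ. Its RS mice measured 2.54, 2.55 and 2.52 and its DJ526 mice 2.55, 2.68 and 2.68, all above the Ctrl mice at 2.38, 2.31 and 2.41, as in 6.24% and 12.5% of all probes in these comparisons. Blocked by slide, the Xdh values were 0.22, 0.06 and 0.34 in RS, DJ and DJ526. Adjusted p for Xdh was 0.816 in RS and 0.236 in DJ526. Aldh3a1, an aldehyde dehydrogenase, was higher by 0.20 ± 0.09, 0.22 ± 0.09 and 0.24 ± 0.09 in RS, DJ and DJ526, and all 9 of these mice lay above the 3 Ctrl mice, as for 1.35% of all probes. With slide as a block the Aldh3a1 values were 0.05, 0.13 and 0.08. Tnfaip2 differed by -0.49 ± 0.20 in DJ526 and by 0.25 with slide as a block. Nqo1, the quinone reductase often read beside Cyp1a1, differed by 0.34 ± 0.18, 0.07 ± 0.18 and 0.24 ± 0.18, and by -0.03, -0.07 and -0.46 with slide as a block.

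**Figure D4:**
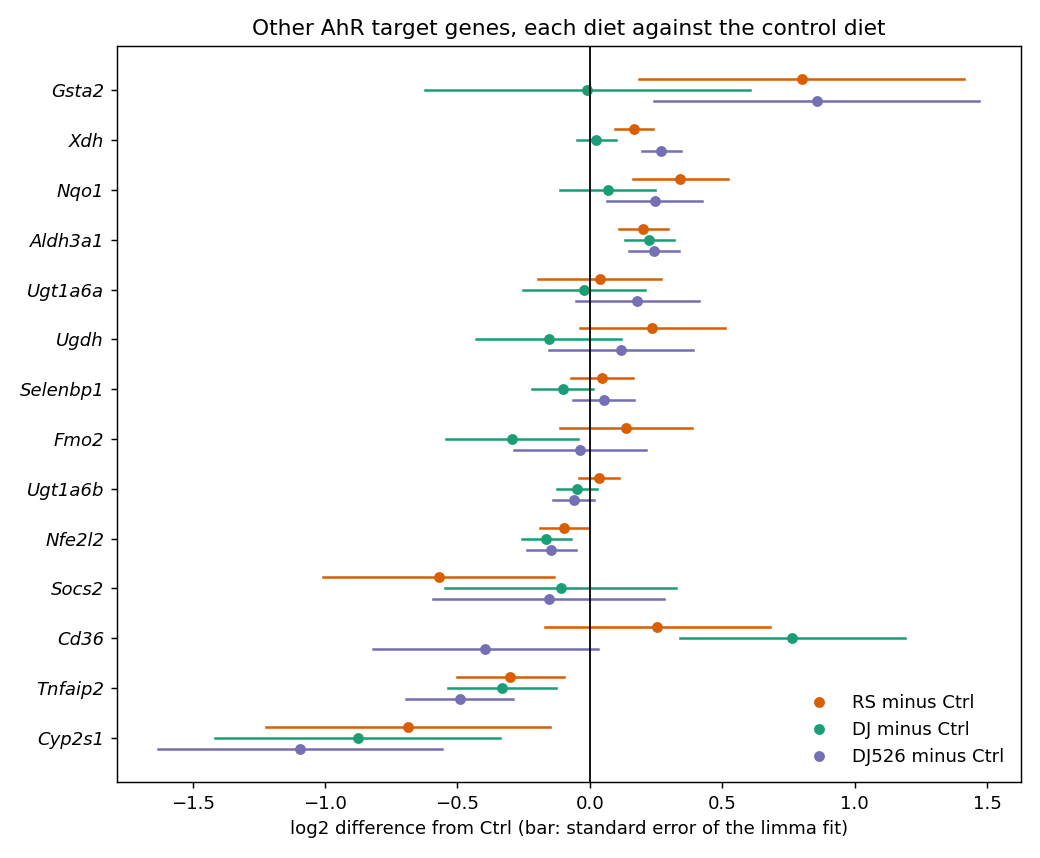
Log2 difference from Ctrl (horizontal axis) of 14 of the other AhR target genes in RS, DJ and DJ526, by their brightest probe. Points are limma estimates and bars their standard errors. Genes lie on both sides of 0, from Gsta2 at 0.86 to Cyp2s1 at -1.09 in DJ526.

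The receptor's partners and cytosolic complex had medians close to those of all probes. Of 14 such genes 13 were well above background on all arrays, none was called, and the median differences from Ctrl were -0.04, 0.01 and 0.04 in RS, DJ and DJ526. Hsp90aa1, the inducible form of the Hsp90 chaperone, differed from Ctrl by -0.50 ± 0.18, -0.43 ± 0.18 and -0.38 ± 0.18, with unadjusted limma p of 0.0168, 0.0346 and 0.0530. Hsp90ab1, the constitutive form, differed by -0.18 ± 0.07 in RS. Epas1 differed by 0.21 ± 0.17 in RS and 0.12 ± 0.17 in DJ. In DJ526 the coactivators Ep300, Ncoa2 and Crebbp differed by 0.20 ± 0.13, 0.15 ± 0.07 and 0.15 ± 0.11. Under the slide block Hsp90aa1 differed by -0.35, -0.42 and 0.03, Hsp90ab1 by -0.21 in RS, Epas1 by -0.14 in RS and -0.15 in DJ, and the coactivators by 0.25, 0.04 and 0.01.

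Genes of the kynurenine route, which breaks down tryptophan and yields AhR ligands, held 10 measured members of a list of 12, with 9 well above background and none called. Their median differences from Ctrl were 0.15, 0.04 and 0.04. Afmid, which makes kynurenine, was higher than Ctrl in RS by 0.41 ± 0.12, with an unadjusted limma p of 0.00493 and an adjusted p of 0.579. Its RS mice measured 2.63, 2.67 and 2.83 and its Ctrl mice 2.41, 2.33 and 2.15. Kyat1 and Kyat3, which turn kynurenine into kynurenic acid, differed by -0.38 ± 0.18 and 0.28 ± 0.22 in RS. Tdo2, the first enzyme of the route, differed by 0.28 ± 0.15 in DJ526. Under the slide block Afmid, Kyat1 and Kyat3 differed by 0.60, -0.86 and 0.66 in RS, and Tdo2 by -0.37 in DJ526.

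The 12 genes that supply P450 enzymes with electrons and haem were all well above background, and none was called. Their medians were -0.05, -0.07 and -0.11 in RS, DJ and DJ526. Alas1, the first step of haem synthesis, differed from Ctrl by -0.60 ± 0.29 in DJ526, and Uros, a later step, by -0.46 ± 0.21. Hmox1, which breaks haem down, differed by -0.27 ± 0.16, -0.38 ± 0.16 and -0.28 ± 0.16. Por, the reductase that feeds electrons to every microsomal P450, differed by 0.20 ± 0.19, -0.31 ± 0.19 and -0.04 ± 0.19. Under the slide block Alas1 and Uros differed by 0.18 and -1.36 in DJ526, Hmox1 by -0.31, -0.47 and -0.18, and Por by 0.38, -0.22 and 0.25.

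Ahr and the Cyp1 genes can follow the time of day, and the hour at which the livers were taken is not given in the sources used here. The 13 clock genes had median differences from Ctrl of 0.07, -0.05 and -0.03, with none called. Per2, a period gene, differed by -1.03 ± 0.17 in DJ against Ctrl, with an unadjusted limma p of 7.39e-05 and an adjusted p of 0.650, and DJ526 minus DJ was 0.79 ± 0.17. Blocked by slide, these were -0.88 and 0.63. The Per2 levels were -1.41, -1.60 and -1.67 in DJ and from -0.64 to -0.41 in Ctrl. The DJ mice thus all lay below the Ctrl mice for Per2, as for 4.86% of all probes in that comparison. Per2 was the 1 clock gene of 13 with an unadjusted limma p under 0.05 in DJ against Ctrl, and 5 of the 13 had a higher mean in DJ. DJ was also the diet in which Per2 and Arnt were both lowest, and a link between them was not tested. Clock genes peak at different hours, so their median can hide a mouse that stands apart, and Ctrl mouse 2 did. Its Arntl, which encodes the clock's core activator, measured 0.50 beside -2.62 and -1.88 in the other Ctrl mice. Its Dbp, a clock output gene, measured 2.32 beside 5.32 and 4.63, and its Nr1d1, a clock repressor, -3.96 beside -1.38 and -1.90. That mouse was also the highest Ctrl mouse for Cyp1a1, both Ahr probes and both Tiparp probes. It was the lowest for the brightest Arnt and Ahrr probes, and the middle mouse for Cyp1a2 and Cyp1b1. Without Ctrl mouse 2, Cyp1a1 differed from Ctrl by 1.48, 1.54 and 1.49 in RS, DJ and DJ526. The brightest Ahr probe then differed by 0.45, 0.51 and 0.39. Without Ctrl mouse 3, the lowest for Cyp1a1, the Cyp1a1 differences were 0.84, 0.90 and 0.84. The part of clock time in the Ahr, Arnt and Cyp1 values was not tested.

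Cell type markers were read beside these genes, since in a whole-liver sample fewer cells of a type and less RNA per cell cannot be told apart. Pericentral hepatocyte genes, which mark the zone where most Cyp1a2 is made, had median differences from Ctrl of -0.03, 0.11 and 0.02 over 10 genes in RS, DJ and DJ526. Their summed signal ranged from 416 to 618 times the upper quartile in Ctrl, 509 to 627 in RS, 588 to 636 in DJ and 470 to 522 in DJ526. Kupffer cell genes had medians of -0.30, -0.46 and -0.19 over 7 genes, with sums of 91.4 to 162 in Ctrl and 73.4 to 109 in the other diets. Lymphocyte genes had medians of 0.46, 0.53 and 0.62 over 6 genes, at low sums of 4.06 to 4.71 in Ctrl and 4.28 to 6.42 in the other diets. Stellate cell and fibroblast genes had medians of 0.16, 0.09 and 0.13, with 8 of 9 genes higher than Ctrl on average in each diet. Their sums were 61.4 to 71.9 in Ctrl, 67.6 to 87.5 in RS, 67.5 to 76.4 in DJ and 68 to 72.7 in DJ526. Cholangiocyte genes had medians of -0.11, -0.23 and -0.42 over 5 genes, at sums of 1.12 to 2.64 in Ctrl and 1.07 to 1.89 in the other diets. Periportal hepatocyte genes had medians of 0.04, 0.06 and 0.21 over 9 genes, with 7 of them higher than Ctrl in DJ526. Erythroid genes had medians of -0.30, -0.28 and 0.06 over 7 genes, with 0, 0 and 6 higher than Ctrl. Endothelial genes had medians of -0.02, -0.05 and 0.02 over 8 genes. No marker gene was called in these comparisons, and the part of these cell types in the AhR and Cyp1 values was not tested.

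As a description over the 12 mice, without a test, each gene's pattern was set against the brightest probes of 15563 genes well above background on all arrays. The points share slides and diets. The genes most like Cyp1a1 were Slc22a18 at a Pearson r of 0.897, then 1700008J07Rik, Knstrn, Srsf5 and Mpzl3. Those most like Cyp1a2 were Has2os at 0.936, Usp35, Tcl1b2, Igsf10 and Olfr424. For Ahr they were Lcn8 at 0.939, Cyp2j8, Tnfrsf1b, Yipf6 and Dpf1, and for Arnt Tmtc1 at 0.906, Tspan15, Gab1, Fam222b and Lingo4. Among the members, Cyp1a1 and Cyp1a2 had an r of 0.598, Ahr and Tiparp 0.757, Ahr and Cyp1a1 0.606, and Ahr and Arnt -0.553. Cyp1a1 and Cyp1b1 had an r of 0.033.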

How the data were processed

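Liver RNA of 12 mice was hybridised by the authors to Agilent 1-colour mouse arrays and read with Feature Extraction 11.5.1.1, per the file headers. The intensity used is the deposited processed signal, from which the authors' software had subtracted background. Its log2 minus log2 of each array's 75th percentile over non-control spots was analysed, after outlier spots were left out and spots of a probe averaged. The authors' deposited table of normalized intensity is this signal times 1 factor per array (0.959 to 1.08) for 99.6% to 99.8% of probes, and served as an alternative. Accessions named 27508 of the 39429 probes through RefSeq (GRCm38.p6). The headers name build mm9, so no coordinates were joined. Groups follow the labels. Differences, SE and p-values are from limma 3.58.1 in R 4.3.3 (group means, eBayes with trend) with Benjamini-Hochberg adjustment over all probes and a threshold of 0.05. The same code was tested on simulated data in which 200 probes were changed. Of probes changed by 1 on the log2 scale, it called 41.5%, 40% and 36.5% in RS, DJ and DJ526 against Ctrl. Of probes changed by 2 it called 77%, 73.5% and 84%, so a probe that was not called may still differ. Arrays give no read depth; their number limits the precision. The genes and lists were chosen with earlier results of these data known. From each list up to 4 genes with the largest differences above background are named. A few genes of these lists are counted but not reported here by name. Likeness is Pearson's r over the arrays.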

Additional observations from a re-analysis of the deposited data

How the results depend on the processing

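No member probe was called under any of 26 other settings of the background, scaling, filter, test, blocks, labels or mice, and the lowest adjusted p of a member in any of them was 0.136. An unpaired t-test, the test named in the study's methods, was run on the log2 signals used here. It gave an unadjusted p under 0.05 for 1, 4 and 2 of the 11 probes in RS, DJ and DJ526 against Ctrl. After Benjamini-Hochberg adjustment it called 0. The study's own Z ratio cut-off and q-values were not applied. Of 2345 alternative values, those by another probe of a gene included, 2247 moved by less than the spread between mice and 83 by more. A further 15, whose differences had exceeded their SE, changed direction, none of these on leaving out a mouse. With slide as a block, the brightest Ahr probe turned to -0.10 in DJ526 against Ctrl and -0.14 for the resveratrol diets. In that setting Arnt A_55_P2100899 turned to 0.13 in DJ against Ctrl and -0.083 for resveratrol on rice minus on starch, Cyp1a2 to -0.0071 in DJ526 against DJ, and Tiparp A_51_P514961 to -0.046 in RS and -0.047 in DJ526 against Ctrl. With that block the median of all probes in DJ526 against Ctrl was -0.12, beside 0.02 without it. Centring by array position took the brightest Arnt probe to -0.015 for the resveratrol diets. With RS and DJ exchanged, that probe gave 0.28 in DJ against RS, -0.18 for the resveratrol diets and 0.10 for rice, Arnt A_55_P2100899 gave 0.19 in DJ against RS and -0.025 for the resveratrol diets, and Cyp1a2 gave -0.017 in DJ526 against DJ and 0.35 in DJ against RS. Exchanging RS and DJ only renames the groups, so the turns in that setting follow from the renaming. The cause of the turns under the other settings was not tested. Cyp1a1 against Ctrl ranged from 0.84 to 1.54 on leaving out single mice. Replicate numbers did not pair the mice (correlations of deviations from -0.27 to 0.26), and with the replicate number as a block 0 members were called. Combined contrasts were not fitted with only the groups compared, nor the last contrast by the unpaired t-test. The normexp setting gave no Cyp1a2 value because its spot's background was marked on all Ctrl arrays.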
